A study of Mus musculus with 18 samples.

Results

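RNA levels in mouse kidney cortex were compared between kidneys left to remodel after aristolochic acid I (AAI) was stopped and kidneys taken at the end of the toxin course. The comparison used 6 of the 18 libraries, those labelled fl/fl AA 6wk and fl/fl AA 3wk, with 3 in each group. All 6 are from C57Bl/6 mice of genotype Klf6fl/fl, which carry floxed alleles of Klf6, a zinc finger transcription factor gene. The 3wk kidneys had 3 weeks of AAI, and the 6wk kidneys had the same course with 3 further weeks for remodeling. The 3 fl/fl DMSO libraries gave the level under vehicle, but the labels give no week for them. The 9 libraries of Klf6PTKO, the knockout labelled as one of the proximal tubule, entered the fit and served for the direction of the AAI change in kidneys that the comparison does not use. The labels give neither ages nor doses, and they leave unsaid whether each library is a different animal. The p-values then rest on library-to-library spread, part of which may be technical. Of 24062 gene symbols, 14604 reached 1 CPM (read counts scaled to the library total) in at least 3 libraries and were tested with limma on the log2(CPM + 1) scale. On that scale the change of low genes is understated.

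AAI is a plant nephrotoxin that is taken up by proximal tubule cells through organic anion transporters and forms DNA adducts. The proximal tubule reabsorbs most filtered solutes. Its S1 and S2 segments lie in the cortex, and its straight S3 segment reaches into the outer medulla. Injured tubule cells lose transporters, switch on injury genes such as Havcr1 (KIM-1), and may divide and redifferentiate, while fibroblasts and leukocytes collect around them. In whole cortex, fewer cells of a type and less RNA per cell cannot be told apart.

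The libraries carried the defining markers of cortex. Slc34a1, the proximal tubule phosphate transporter, stood at 2277, 1435 and 1376 CPM at 3wk and at 1312, 1979.6 and 2068 CPM at 6wk. Slc12a3 of the distal convoluted tubule, Umod of the thick ascending limb, Aqp2 of the collecting duct and the podocyte gene Nphs1 were found in all 6. Summed levels of the skeletal muscle and adrenal cortex lists were low in all 6. Reads per library ran from 21325952 to 26792783 at 3wk and from 11722625 to 20063456 at 6wk, so the 6wk libraries were shallower, and 6wk replicate 2 was the shallowest of all. It also lay nearest to the DMSO libraries on the first principal component, at 25.6 against 64.3 and 58.8 for the other 6wk libraries and 67.7 to 87.9 at 3wk. The median SD of a gene within a group was 0.10 under DMSO, 0.15 at 3wk and 0.17 at 6wk in fl/fl (log2 scale), and since the spread was pooled over 6 groups the p-values of this comparison can be too small.

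Between 3wk and 6wk, 1932 genes changed (13.2% of those tested) at a Benjamini-Hochberg adjusted p under 0.05. Of these, 1046 rose (7.16%) and 886 fell (6.07%). Rises had a median of 0.62 and falls a median of -0.65 on the log2 scale, and 232 rises and 171 falls exceeded 2-fold. Among the called genes, 1016 of the rises and 868 of the falls had no overlap between the 3 libraries of each group. Over all tested genes, 16.6% lay higher without overlap and 15.6% lower. The fit on the 6 compared libraries alone called 562 genes, 312 higher and 250 lower. Leaving out 3wk replicate 3 left 642 calls, leaving out 6wk replicate 2 left 643, and leaving out 3wk replicate 2 left 1213. With median-of-ratios scaling the split turned, to 841 higher and 1078 lower (43.8% higher against 54.1%), while with TMM scaling it was 853 against 998 and with quantile normalization 1152 against 1263.

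Each gene was then placed by its change during the toxin course. Of 2651 genes lower at 3wk than under DMSO (18.2% of those tested), 744 rose by 6wk (28.1%). Of 8466 genes higher at 3wk (58.0%), 855 fell (10.1%). A further 189 rose and 27 fell without a called change at 3wk, 113 rose above an already raised level, and 4 fell below an already lowered one. These classes share the 3wk libraries between both comparisons, so they are a description. They also depend on scaling. Under CPM the median of all genes was 0.45 higher at 3wk than under DMSO, against 0.03 with median-of-ratios scaling. With that scaling 99 genes newly rose, 115 newly fell, 57 rose further and 39 fell further. At the median gene the return was partial. The share of the log2 change from DMSO left at 6wk had a median of 0.46 in genes that fell then rose. It was 0.63 in genes that rose then fell. Of the 744 genes that fell and then rose, 487 were called against DMSO at 6wk, in either direction. Of the 855 that rose and then fell, 756 were. Over all tested genes 73.7% were called against DMSO at 6wk, 13.9% lower and 59.8% higher.

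The direction of the AAI change was also taken from PTKO, whose libraries the comparison does not contain. Among 2032 genes lower at 3wk than under DMSO in PTKO (13.9%), 556 rose in fl/fl between 3wk and 6wk (27.4%) and 10 fell (0.492%), with a median change of 0.26. Of 8354 genes higher there (57.2%), 808 fell (9.67%) and 180 rose (2.15%), with a median of -0.10. Among the 4218 genes not called there, 7.35% rose and 1.61% fell. By both directions, 555 genes fell and then rose, which is 74.6% of the class defined in fl/fl and 99.8% of that defined in PTKO. Another 807 rose and then fell by both, 94.4% and 99.9% of those classes. Both definitions use the same fl/fl calls between 3wk and 6wk. These shares therefore measure only whether the AAI direction was the same, and are no separate support for the return.

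**Figure D1:**
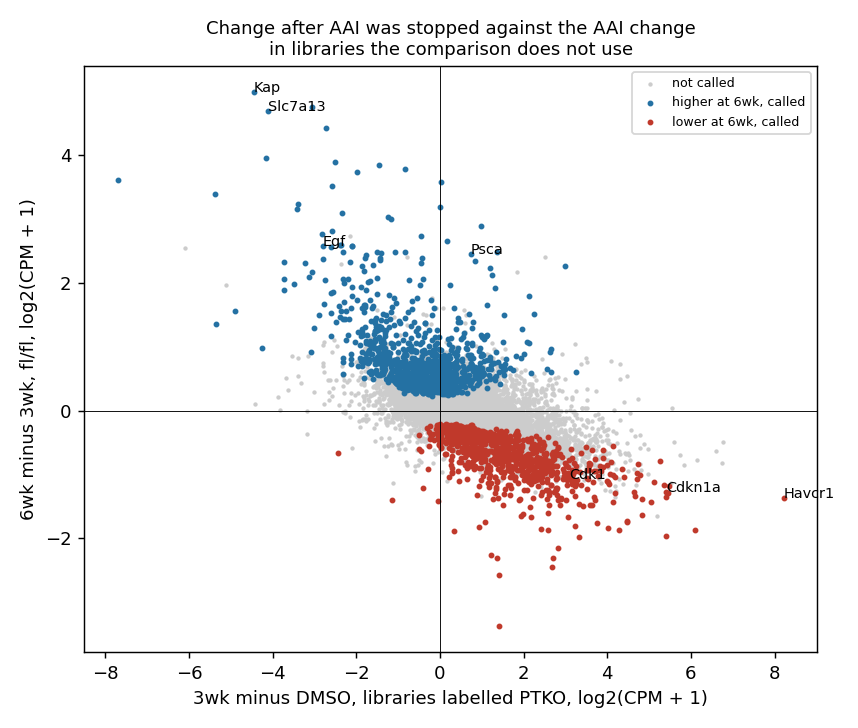
Each point is a tested gene, with its 3wk minus DMSO difference in the libraries labelled PTKO on the x axis and its 6wk minus 3wk difference in fl/fl on the y axis, both as log2(CPM + 1). Genes called higher at 6wk (blue) lie mostly on the left, among genes that AAI lowered, and genes called lower (red) mostly on the right.

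The S3 segment of the proximal tubule had the highest median rise of the 57 gene lists examined. Of the 18 tested genes of the S3 list, 16 rose and none fell, with a median of 2.36 against 0.00 for all tested genes. Kap, the kidney androgen-regulated protein of proximal tubule cells (GENCODE, mm10 chr6:133849851-133853762, minus strand), read 27926, 31870.3 and 28349 CPM under DMSO, 68.5, 436 and 180.2 CPM at 3wk, and 4353, 13121 and 3057 CPM at 6wk. Every 6wk library lay above every 3wk library, and all 3 stayed below DMSO. Kap rose by 4.99 ± 0.85 (SE, adjusted p = 0.0024) and differed from DMSO by -2.39 at 6wk. Slc7a13, an aspartate, glutamate and cystine transporter of the S3 apical membrane, went from 1166, 1271 and 1328 CPM under DMSO to 1.9, 23.1 and 6.98 CPM at 3wk and 176, 481 and 112 CPM at 6wk (4.69 ± 0.79, adjusted p = 0.00227). Replicate 2 was the highest of its group at both times for both genes.

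Slc5a10, Slc22a13 and Napsa rose to levels whose difference from DMSO did not pass the test at 6wk. Slc5a10, a mannose and fructose cotransporter, stood at 150.0 ± 9.43 CPM under DMSO (SD, n = 3), 28.7 ± 11.5 at 3wk and 142 ± 39.1 at 6wk, a rise of 2.31 (adjusted p = 0.000552), with a 6wk difference from DMSO of -0.11 (adjusted p = 0.736). Slc22a13, a urate and nicotinate transporter, read 44.2, 72.1 and 30.5 CPM at 6wk against 1.9, 14.4 and 6.81 CPM at 3wk, with 37.5, 35.9 and 57.8 CPM under DMSO (6wk difference 0.11, adjusted p = 0.867). Napsa, an aspartic protease gene, rose by 2.05 from 427 ± 193 to 1747 ± 718 CPM. Its 6wk difference from DMSO, -0.47, did not pass the test (adjusted p = 0.26). The brush border protease Mep1b rose by 3.85, the monocarboxylate transporter Slc5a8 by 3.04, the aminoacylase Acy3 by 2.31 and the kynurenine aminotransferase Aadat by 2.39.

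The organic anion transporter Slco1a1 was the S3 gene left farthest below vehicle. Its levels were 738, 864 and 631 CPM under DMSO, 0.933, 1.08 and 0.567 CPM at 3wk and 19.1, 79.4 and 6.19 CPM at 6wk. It rose by 3.62 (adjusted p = 0.0169) and differed from DMSO by -5.03 at 6wk, and the call was lost without 3wk replicate 3 or 6wk replicate 2. Slc22a7, an organic anion transporter, rose by 4.43 (adjusted p = 0.00855) on values of 57.4, 271 and 25.8 CPM, and was not called without 6wk replicate 2. The S3 list kept 11 and 10 called genes without those libraries, and 15 in the fit on 6 libraries. Cyp2e1 and Cyp4a14 were the 2 members not called, at -0.15 (adjusted p = 0.865) and 0.76 (adjusted p = 0.567). In PTKO no S3 gene was called between 6wk and 3wk by limma, edgeR or DESeq2, 0 had an unadjusted p under 0.05, and the list's median was 0.69. The difference between genotypes was tested as an interaction, and limma called 0 of 14604 genes (1387 at an unadjusted p under 0.05), edgeR 0 and DESeq2 48.

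Markers of the S1 and S2 segments gave few calls. Of 24 tested, 2 rose and none fell, a count near the 7.16% of all tested genes that rose. The median was 0.35, and 21 were below DMSO at 6wk as at 3wk. Slc34a1 had a change of 0.09 (adjusted p = 0.846) and differed from DMSO by -2.28 at 6wk. Slc5a2, the glucose cotransporter SGLT2, read 274, 202 and 189 CPM at 3wk and 152, 230.4 and 228 CPM at 6wk (-0.13, adjusted p = 0.615). For Lrp2 (megalin), the endocytic receptor of the brush border, the change was 0.48 (adjusted p = 0.273). The basolateral organic anion transporter Slc22a6 went from 71, 33.3 and 33 CPM to 30.5, 155 and 48.5 CPM (0.51, adjusted p = 0.573), against 1685 ± 22.6 CPM under DMSO. The 3wk and 6wk libraries overlapped for each of these 4 genes. The 2 that rose were Slc6a20b, an amino acid transporter (1.23, adjusted p = 0.00814), and Slc3a1, the rBAT subunit (0.76, adjusted p = 0.0287). The call of each was lost without 3wk replicate 3.

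Among 18 organic anion and cation transporters, 8 rose and 1 fell, 3 of them also on the S3 list. Slc22a12, the urate transporter URAT1, rose from 90.5 ± 25.1 to 453 ± 291 CPM (2.17, adjusted p = 0.00436), with 2277 ± 132 CPM under DMSO. Of 19 cytochrome P450 genes, 6 rose and 1 fell. Cyp4a10, a fatty acid hydroxylase, read 16.9, 30.1 and 19.8 CPM at 3wk and 85.4, 204 and 115 CPM at 6wk, near its 181, 192 and 176 CPM under DMSO (2.49, adjusted p = 0.000833). Cyp2d9 rose by 3.53 (adjusted p = 0.000264) and Cyp2j11 by 1.94. The member that fell, Cyp4a12b, went from 15.2 ± 3.81 to 3.45 ± 1.38 CPM (-1.89, adjusted p = 0.013). The Cyp2d, Cyp4a12 and Serpina1 genes have near-identical neighbours, so their reads are hard to assign to 1 copy. Without 3wk replicate 3 and without 6wk replicate 2, 3 and 2 transporters rose, and 3 P450 genes rose in each case. The Cyp4a12b call was lost without 3wk replicate 3.

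**Figure D2:**
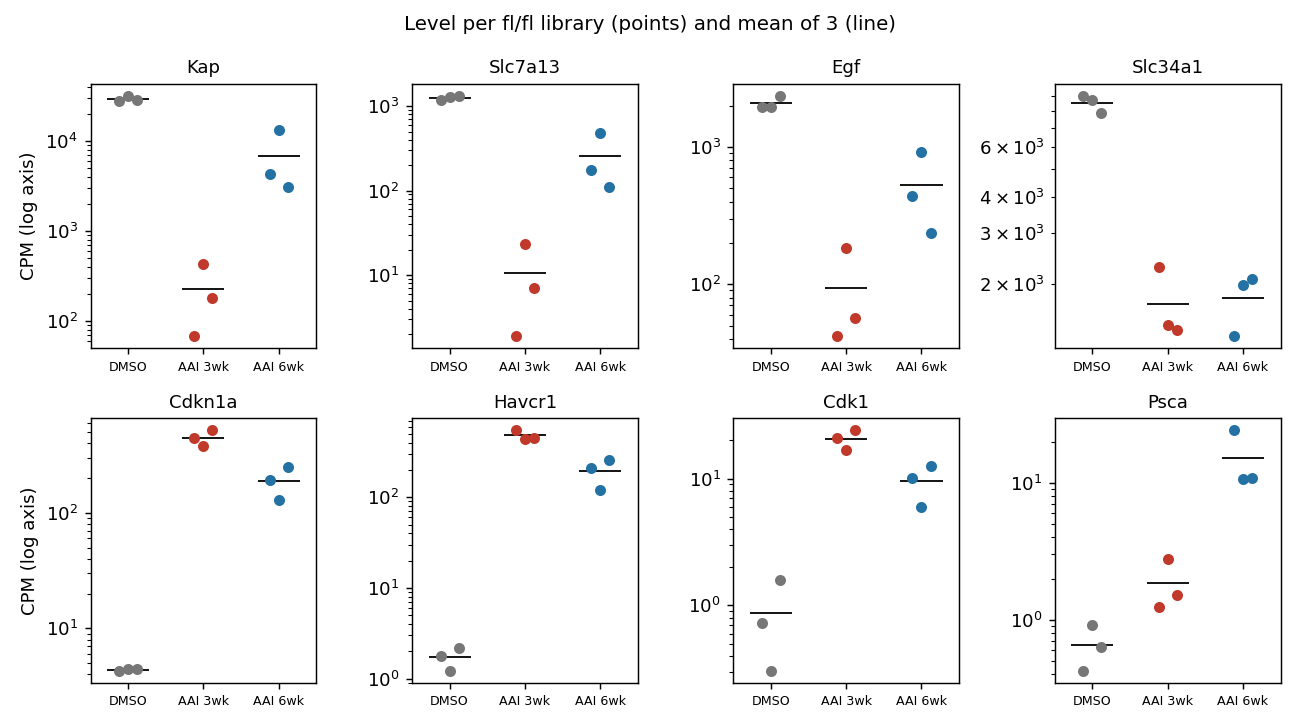
Points are the CPM of each fl/fl library on a log axis for 8 genes under DMSO, at 3wk and at 6wk, and lines are group means. Kap, Slc7a13 and Egf climb back part of the way at 6wk, Slc34a1 overlaps between 3wk and 6wk, Cdkn1a, Havcr1 and Cdk1 come down part of the way, and Psca is highest at 6wk.

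Enzymes of mitochondrial metabolism rose in part. In the branched-chain amino acid list (valine, leucine and isoleucine breakdown), 13 of 27 rose and none fell, with a median of 0.43. The study took up this pathway partly on these samples, so the count cannot stand as separate support for its direction. Acat1, the mitochondrial thiolase, read 149.6, 168 and 132 CPM at 3wk and 301, 527 and 253 CPM at 6wk, below 1028, 1139.5 and 1056 CPM under DMSO (1.19 ± 0.23, adjusted p = 0.00424). Mccc2 rose by 0.74 and Acadsb by 0.51. Bckdha, the E1 alpha subunit of the branched-chain dehydrogenase, had a change of 0.17 (adjusted p = 0.326) and stood at 172 ± 24 CPM against 451 ± 29.2 under DMSO. The count was 7 with median-of-ratios scaling, 8 without 3wk replicate 2, and 1 without 3wk replicate 3, without 6wk replicate 2 or on the 6 libraries alone.

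Fatty acid oxidation rose in 9 of 24 genes, median 0.35. Acadm, the medium-chain acyl-CoA dehydrogenase, went from 149.7, 148 and 104 CPM to 324, 738 and 289.8 CPM (1.63 ± 0.30, adjusted p = 0.00362), with 902 ± 85.1 CPM under DMSO. The acyl-CoA thioesterase Acot12 rose by 1.84 (adjusted p = 0.00241). In the tricarboxylic acid cycle 9 of 19 rose, with a median of 0.33. The isocitrate dehydrogenase subunit Idh3g read 179, 177 and 179 CPM at 3wk and 218, 263 and 239 CPM at 6wk (0.42, adjusted p = 0.00607). Of 26 oxidative phosphorylation genes 3 rose, median 0.22, a count near the 7.16% of all tested genes that rose. Fatty acid oxidation kept 3 calls without 3wk replicate 3 or 6wk replicate 2 and 2 on the 6 libraries alone. The tricarboxylic acid cycle had 3 calls with median-of-ratios scaling, TMM or edgeR, 1 without 3wk replicate 3 or 6wk replicate 2, and 0 on the 6 libraries alone. Oxidative phosphorylation had 0 under each of these and 0 without 3wk replicate 2.

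Other proximal tubule functions showed single strong members. Haao, which feeds NAD synthesis from tryptophan, was at 12.6, 12.5 and 12.5 CPM at 3wk and 44.2, 102 and 37.3 CPM at 6wk (2.06 ± 0.31, adjusted p = 0.00118), still below its 212 ± 4.37 CPM under DMSO. The fructose transporter Slc2a5 rose by 1.38 (adjusted p = 0.000408) and fructokinase Khk by 0.84. Ace, the angiotensin-converting enzyme of the brush border and endothelium, rose from 40.6 ± 8.45 to 157 ± 53.8 CPM (1.89, adjusted p = 0.00227). Of 15 glycolysis genes 0 were called by limma, edgeR or DESeq2, with 3 at an unadjusted p under 0.05 in limma. Quantile normalization called 1.

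Thick ascending limb markers also rose. Of 14 tested, 9 rose and none fell, with a median of 0.99. Egf, the epidermal growth factor precursor made in that segment and the distal tubule, read 1956, 1970.5 and 2366 CPM under DMSO, 41.9, 183 and 56.4 CPM at 3wk and 441, 918 and 235 CPM at 6wk (2.58 ± 0.46, adjusted p = 0.00328). Its lowest 6wk library was above the highest 3wk library. Slc12a1, the sodium-potassium-chloride cotransporter NKCC2, read 141, 458 and 207 CPM at 3wk and 1689.7, 972 and 598 CPM at 6wk (2.06, adjusted p = 0.0168), with 826 ± 249 CPM under DMSO. The Slc12a1 call was lost without replicate 1 of either group, without 3wk replicate 3 or without 6wk replicate 2. The claudin gene Cldn10 rose by 1.32 (adjusted p = 0.00223). Umod, at 4354 ± 1672 CPM, had a change of 1.11 that did not pass the test (adjusted p = 0.0603).

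The other distal segments gave fewer calls. Of distal convoluted tubule markers 3 of 12 rose, and of intercalated cell markers 3 of 15, among them the anion exchanger Slc4a1 (1.61, adjusted p = 0.000766). Each of these lists had 1 call without 3wk replicate 3 or 6wk replicate 2. Of 14 principal cell markers limma called 0 (2 at an unadjusted p under 0.05), and edgeR and DESeq2 each called 1. The thick ascending limb count was 4 without replicate 1 of either group, 2 without 3wk replicate 3 or 6wk replicate 2, and 1 on the 6 libraries alone.

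Some markers of tissue outside the cortex were higher at 6wk as well. Slc14a2, the urea transporter of the inner medulla, read 4.67, 21.1 and 10.5 CPM at 3wk and 137, 38.5 and 23.6 CPM at 6wk (2.18, adjusted p = 0.214). Of the 9 tested genes on the inner medulla list 3 rose (Aqp1, Fxyd2 and Slc5a3) and 1 fell (Calcb), with a median of 0.26, and Aqp1 and Fxyd2 are also expressed in other tubule segments. The summed level of the urothelium list was 5.6, 8.82 and 3.8 CPM at 3wk and 53.8, 25.8 and 34.6 CPM at 6wk, and 2 of its 7 tested genes rose. That count was 1 without replicate 1 of either group or without 3wk replicate 3, and 5 on the 6 libraries alone, while 0 inner medulla genes rose without 6wk replicate 2. The same direction was seen in PTKO, where 3 of these 7 rose, against 2.92% of all tested genes. The part of medulla or urothelium in the rise of thick ascending limb and S3 genes was not tested. At 6wk replicate 1 was highest for Slc14a2, Slc12a1 and the urothelium list, and replicate 2 for Kap, Egf and the S3 list. The order of 3 libraries cannot decide that part, and no separate list of outer medulla genes was examined.

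Injury genes came down but stayed high. Of 25 tubular injury genes, 10 fell and none rose, with a median of -0.49, and all 25 were above DMSO at both times. Havcr1 read 545, 443 and 455 CPM at 3wk and 209.7, 119 and 257 CPM at 6wk, against 1.76, 1.22 and 2.17 CPM under DMSO (-1.36 ± 0.33, adjusted p = 0.0164). S100a6, a calcium-binding protein gene, fell most, from 456 ± 104 to 119 ± 41.3 CPM (-1.97 ± 0.24, adjusted p = 0.000408). Clu (clusterin) fell by 0.61 from 4175 ± 85.7 to 2802 ± 759.9 CPM, and Timp1, an inhibitor of matrix proteases, fell by 1.34. The Clu call held without 6wk replicate 3 and was lost without each of the other 5 libraries, and Timp1 was lost without 3wk replicate 2 or 3 or 6wk replicate 2.

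Other injury genes did not pass the test. Lcn2, which encodes NGAL, read 679, 899.6 and 767 CPM at 3wk and 539.7, 285 and 548 CPM at 6wk (-0.82, adjusted p = 0.108), without overlap. Vcam1 was at 274 ± 23.2 and 305 ± 63.9 CPM (0.14, adjusted p = 0.775) and the transcription factor gene Sox9 at 33.9 ± 2.24 and 32 ± 11.8 CPM (-0.15, adjusted p = 0.712), both far above DMSO. Within the list of failed-repair genes 2 of 17 fell and 1 rose. Klf6 itself read 308, 273 and 256 CPM at 3wk and 284, 201 and 270.3 CPM at 6wk (-0.16, adjusted p = 0.578). Of the 10 injury calls, 5 were left without 3wk replicate 1 or 2, 1 without 3wk replicate 3 or 6wk replicate 2, and 3 on the 6 libraries alone. Havcr1 was not called without either of the last pair.

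Targets of p53, the transcription factor activated by DNA damage, also fell. Of 26 tested, 18 fell and 1 rose, with a median of -0.64, and 21 were above DMSO at 6wk. Cdkn1a (p21), the cyclin-dependent kinase inhibitor, read 4.3, 4.42 and 4.44 CPM under DMSO, 447, 377 and 516 CPM at 3wk and 191, 128 and 248 CPM at 6wk (-1.28 ± 0.22, adjusted p = 0.00244). Bax, a pro-apoptotic gene, fell by 0.81 (adjusted p = 0.000766) from 92.8, 100.4 and 121 CPM to 58.6, 51.6 and 67.1 CPM. Mdm2, which encodes the ligase that degrades p53, fell from 153 ± 33.4 to 79.7 ± 12.8 CPM (-0.92, adjusted p = 0.000833). These 3 genes stayed called when each of the 6 libraries was left out in turn. Ccng1, Sesn1 and Trp53inp1 had changes of -0.22, -0.10 and -0.20 and were not called. Rrm2b, a ribonucleotide reductase subunit, was the member that rose (0.56, adjusted p = 0.00626), back to 33.6 ± 3.39 CPM against 36 ± 0.428 under DMSO. Without 3wk replicate 3, 9 members fell, without 6wk replicate 2, 8 did, and 8 did on the 6 libraries alone. In PTKO 15 of the 26 fell between 3wk and 6wk, where 8.26% of all tested genes fell.

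Of 30 cell cycle genes tested, 16 fell and none rose, with a median of -1.04, where 6.07% of all tested genes fell. In 28 of them every 6wk library was lower than every 3wk library, against 15.6% of all tested genes. All 30 were above DMSO at 6wk. Aurkb, a mitotic kinase gene, fell from 14.8, 13.7 and 16.9 CPM to 6.43, 2.47 and 6.5 CPM (-1.48 ± 0.31, adjusted p = 0.00806), with 0.551 ± 0.273 CPM under DMSO. Rrm2, a ribonucleotide reductase subunit of S phase, fell by 1.38 from 40.7 ± 3.71 to 16.1 ± 6.78 CPM. Mki67 (Ki-67) read 104, 83.7 and 89.1 CPM at 3wk and 54.3, 27 and 55.7 CPM at 6wk, but its change of -1.06 did not pass the test (adjusted p = 0.118). Replicate 2 was the lowest 6wk library for each of these 3 genes. In PTKO 26 of the 30 fell, with a median of -1.36, where 8.26% of all tested genes fell. The fl/fl count was 9 without 3wk replicate 1, 5 without 3wk replicate 3, 3 without 6wk replicate 2 and 6 on the 6 libraries alone, and 24 with quantile normalization.

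Promoters of cell cycle genes are known for CCAAT boxes, bound by NF-Y, and for the CHR element (TTTGAA), bound by the DREAM and MuvB complexes. In the 250 bases before the RefSeq start, on either strand, CCAAT was found in 21 of the 26 list genes with a sequence (80.8%), against 37.5% of 27025 genes and 39.7% of the 10960 tested genes with a sequence. TTTGAA was found in 9 of 26 (34.6%), against 18.3% of all genes and 1422 of the 10960 tested genes with a sequence. Among the 14 called list genes with a sequence, 10 held CCAAT (71.4%) and 3 held TTTGAA (21.4%). These 3 hold both motifs, and they are shown to give the place of each, with both motifs in capitals (ATTGG and TTCAAA are the reverse strand). The motifs do not overlap in these windows, and a match is a run of letters, not a binding site.
Mcm2: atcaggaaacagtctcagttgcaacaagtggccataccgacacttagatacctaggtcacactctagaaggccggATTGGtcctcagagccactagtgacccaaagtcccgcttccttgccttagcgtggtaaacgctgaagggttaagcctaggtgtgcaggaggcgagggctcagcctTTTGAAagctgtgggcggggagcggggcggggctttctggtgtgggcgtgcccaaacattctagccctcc
Kif11: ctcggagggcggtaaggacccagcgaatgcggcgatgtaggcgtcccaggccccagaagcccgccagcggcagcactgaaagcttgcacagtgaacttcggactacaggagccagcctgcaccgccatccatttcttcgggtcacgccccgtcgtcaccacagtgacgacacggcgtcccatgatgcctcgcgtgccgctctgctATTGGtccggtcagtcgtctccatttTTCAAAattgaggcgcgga
Cdk1: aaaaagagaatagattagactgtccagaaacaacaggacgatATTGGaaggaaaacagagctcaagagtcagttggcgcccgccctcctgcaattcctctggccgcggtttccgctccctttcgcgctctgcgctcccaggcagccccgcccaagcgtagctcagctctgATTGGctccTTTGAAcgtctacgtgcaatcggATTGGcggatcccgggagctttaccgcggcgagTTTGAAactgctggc
The windows lie on GRCm38.p6 at chr6:88898781-88899030 (minus strand), chr19:37376132-37376381 (plus strand) and chr10:69352913-69353162 (minus strand). Mcm2, part of the replicative helicase, fell by 0.59 (adjusted p = 0.00336) from 52.5, 52.5 and 51.1 CPM to 36.6, 28.2 and 38.9 CPM. Kif11, the kinesin that separates spindle poles, fell by 1.23 (adjusted p = 0.0436) from 24.8, 18.1 and 18.6 CPM to 9.47, 4.09 and 13 CPM. Cdk1, the kinase that drives mitotic entry, fell by 1.07 (adjusted p = 0.0479) from 20.9, 16.7 and 23.9 CPM to 10.1, 5.97 and 12.4 CPM. All 3 genes had every 6wk library below every 3wk library. Mcm2 stayed called when each of the 6 libraries was left out in turn, whereas Kif11 and Cdk1 kept the call only without 6wk replicate 3.

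DNA repair genes also fell in part. Of 22 tested, 9 fell and none rose, with a median of -0.50. Brca1, of homologous recombination, fell from 12.6 ± 1.72 to 5.58 ± 2.13 CPM (-1.10, adjusted p = 0.009). The flap endonuclease gene Fen1 went from 25.1 ± 0.71 to 14.4 ± 2.68 CPM (-0.77, adjusted p = 0.00335). DNA ligase 1 (Lig1) fell by 0.78. Without 3wk replicate 1, 5 fell, without 3wk replicate 3 or 6wk replicate 2, 3 did, and 1 on the 6 libraries alone.

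**Figure D3:**
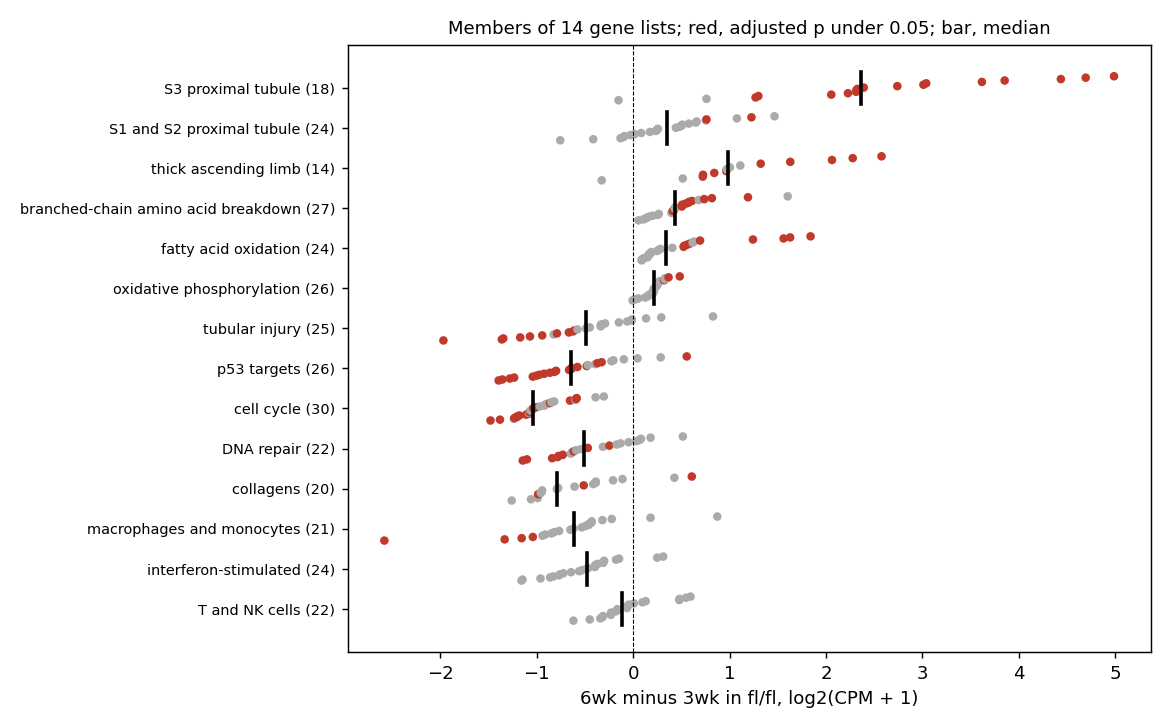
Each point is a tested gene placed by its 6wk minus 3wk difference in fl/fl (log2 of CPM + 1), by list, with the number tested in brackets, red points passing the test and bars marking list medians. S3 genes reach furthest right, and the cell cycle, p53 and injury lists lie mostly left of 0.

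Matrix and fibroblast lists had medians below 0, and calls ranged from 2 of 20 to 6 of 19 lower, where 6.07% of all tested genes fell. Of 20 collagens 2 fell and 1 rose, although the median was -0.78 and 16 lay lower without overlap, against 15.6% of all tested genes. Col1a1, the alpha 1 chain of type I collagen, read 701, 845 and 957 CPM at 3wk and 585, 319 and 424 CPM at 6wk (-0.95, adjusted p = 0.216), against 19.2 ± 6.71 CPM under DMSO. Vcan (versican), a large matrix proteoglycan gene, fell from 26.6, 24.2 and 24.2 CPM to 8.42, 6.23 and 7.11 CPM (-1.66 ± 0.18, adjusted p = 0.0002). Fibronectin (Fn1) fell by 1.43 (adjusted p = 0.0179) from 1752 ± 217 to 667 ± 208 CPM. Among proteases and inhibitors 6 of 21 fell, including Plat, the tissue plasminogen activator (-0.83, adjusted p = 0.00167), and Mmp9 (-1.84). Of 19 fibroblast and pericyte markers 6 fell and 1 rose. The smooth muscle actin gene Acta2 fell by 1.32 (adjusted p = 0.00373) from 267, 216 and 257 CPM to 103, 81.7 and 109 CPM, and the pericyte receptor gene Notch3 fell by 1.09 (adjusted p = 0.000746). On the 6 libraries alone 7 collagens fell, with quantile normalization 6, with TMM scaling 1, and without 3wk replicate 3 or 6wk replicate 2 it was 0. Proteases and inhibitors fell in 1 without either of those libraries and in 4 without 3wk replicate 2, matrix proteins and crosslinkers, 3 of 24 otherwise, fell in 1 without either, and fibroblast markers fell in 5 and 4. The calls of Fn1 and Mmp9 were lost without 3wk replicate 3 or 6wk replicate 2.

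Among macrophage genes 4 of 21 fell, with a median of -0.62. The count was 2 without 3wk replicate 2 and 1 without 6wk replicate 2, and DESeq2 called 8 lower. Mrc1, the mannose receptor, fell from 278, 286 and 238 CPM to 111, 89 and 118 CPM (-1.33 ± 0.19, adjusted p = 0.000833). Arg1 (arginase 1) fell from 26.2, 46.9 and 36.1 CPM to 10.8, 1.88 and 5.72 CPM (-2.58, adjusted p = 0.00849). The Arg1 call was lost without 6wk replicate 2, with a pseudocount of 0.1 and with DESeq2. The F4/80 gene, listed as Emr1, was at 92.8, 282 and 133 CPM and 86.9, 61.6 and 90.9 CPM (-0.94, adjusted p = 0.129). Genes outside the list with the largest falls included leukocyte products. They also included Crct1, Nipal4, Nxpe5 and Ptprn, which stayed called in all 22 alternative fits. Rnase2a, an eosinophil-associated ribonuclease gene with close copies, went from 26, 6.1 and 28 CPM to 3.04, 0.171 and 0.0773 CPM (-3.36, adjusted p = 0.0012), and the eosinophil chemokine Ccl24 from 7.94 ± 3.82 to 0.873 ± 0.776 CPM (-2.25). From the complement list, properdin (Cfp), which stabilises the alternative complement convertase, fell from 189.7 ± 33.4 to 60.6 ± 10.4 CPM (-1.63, adjusted p = 0.00272).

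With limma and with edgeR 0 of 22 T and NK cell genes, 11 class II genes, 14 class I genes and 24 interferon-stimulated genes passed the test. At an unadjusted p under 0.05 limma gave 0, 3, 6 and 5, and DESeq2 called 0, 1, 1 and 1. Quantile normalization called 2 interferon-stimulated genes lower, and the fit on 6 libraries 1. The lists' medians were -0.11, -0.45, -0.51 and -0.48. Without overlap, 11 of the 14 class I genes and 10 of the 24 interferon-stimulated genes lay lower at 6wk, where 15.6% of all tested genes did. In PTKO 5 and 8 of them were called lower, against 8.26% of all tested genes. Cd74, the class II invariant chain, read 4588, 4286 and 8498 CPM at 3wk and 5113, 2975 and 4773 CPM at 6wk (-0.40, adjusted p = 0.531), against 263 ± 76.1 CPM under DMSO. The immunoglobulin joining chain, listed as Igj, was at 190.1, 837 and 667 CPM and 905, 911 and 830.0 CPM (0.89, adjusted p = 0.166). Among 16 B and plasma cell genes 1 fell, Bank1 (-0.67, adjusted p = 0.0442). That call held without 6wk replicate 3 but was lost without each of the other 5 libraries, with TMM scaling, and with edgeR and DESeq2.

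**Figure D4:**
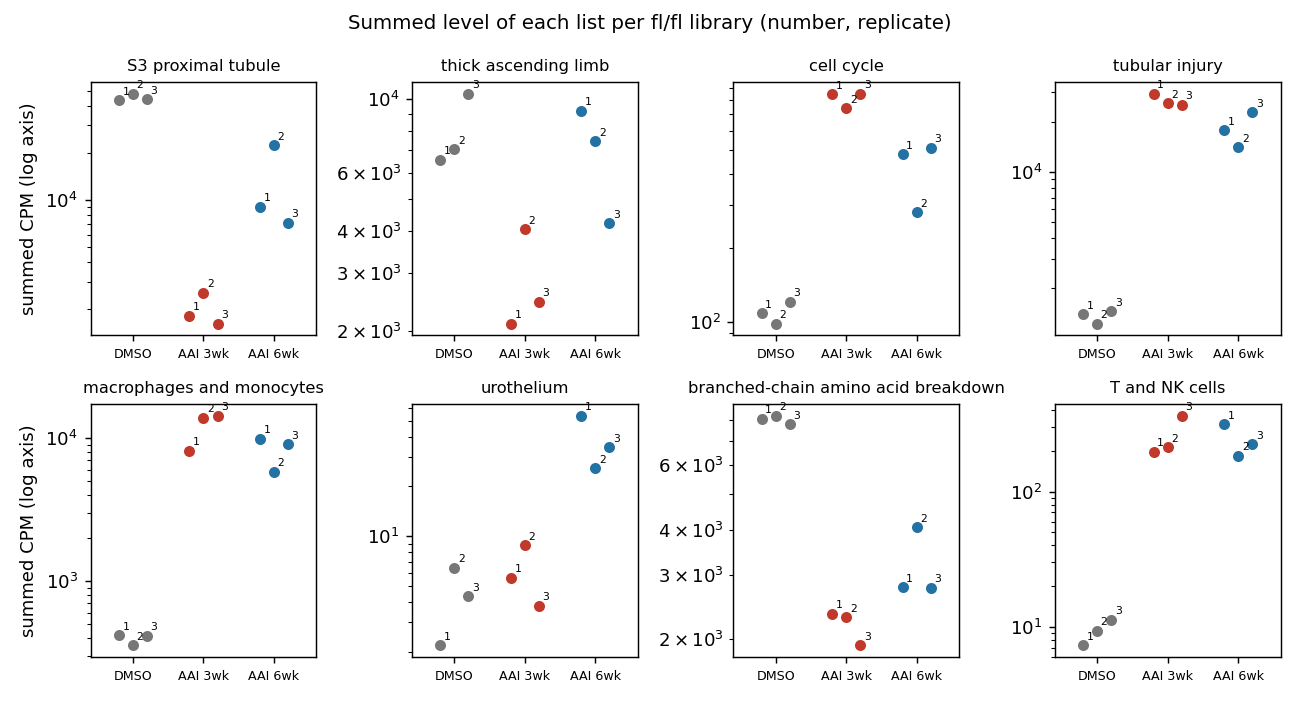
Points are the summed CPM of all genes of a list in each fl/fl library (log axis), labelled by replicate number, under DMSO, at 3wk and at 6wk. For the S3 list 6wk replicate 2 is the highest of the 6wk libraries, and for the cell cycle list it is the lowest, while the T and NK cell sums of 3wk and 6wk overlap.

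A smaller set of 189 genes rose at 6wk without having been called at 3wk. Psca, a surface protein gene of urothelium, read 0.424, 0.914 and 0.634 CPM under DMSO, 1.23, 2.77 and 1.53 CPM at 3wk and 24.1, 10.7 and 10.8 CPM at 6wk (2.45 ± 0.49, adjusted p = 0.00574). Upk3b, a uroplakin gene, rose by 1.61 (adjusted p = 0.0277), chiefly in replicate 1 at 10.4 CPM against 2.47 and 2.94. Apela, a peptide ligand of the apelin receptor, rose from 18.1 ± 7.92 to 59.2 ± 25.1 CPM (1.65, adjusted p = 0.0152). The distal nephron factor Irx1 rose by 1.45 (adjusted p = 0.0391). Gp2, a relative of uromodulin, read 8.02, 7.51 and 7.58 CPM at 6wk against 1.98, 3.05 and 2.05 CPM at 3wk (1.39, adjusted p = 0.00262). Psca and Gp2 stayed called when each of the 6 libraries was left out. Apela, Upk3b and Irx1 were not called without 3wk replicate 1 or without 3wk replicate 3, among others.

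Genes raised by AAI that rose further included Gabrp, a GABA receptor subunit, at 0.0893 ± 0.025, 8.27 ± 2.92 and 47.6 ± 31.2 CPM under DMSO, at 3wk and at 6wk (2.27, adjusted p = 0.00098). Islr2, an immunoglobulin and leucine-rich repeat gene, read 2.28, 4.74 and 3.75 CPM at 3wk and 28.1, 19.1 and 19.3 CPM at 6wk (2.35 ± 0.24, adjusted p = 0.0002). Stra6, the receptor for retinol-binding protein, went from 14, 34.1 and 31.8 CPM to 102, 78.7 and 86.9 CPM (1.79, adjusted p = 0.00583). For these 3 genes the 6wk libraries lay above the 3wk libraries, and Gabrp, Islr2 and Stra6 also rose in PTKO, by 1.25, 1.49 and 1.20. The renal developmental factor Pax2 rose by 0.64 (adjusted p = 0.0347) and nephronectin (Npnt) by 0.68. With 1 library left out, the Pax2 call held only without 6wk replicate 2. The Npnt call was lost without replicate 1 of either group, without 3wk replicate 3, without 6wk replicate 2, and on the 6 libraries alone.

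Under CPM, few genes fell without having been raised by AAI, 27 newly and 4 further. These counts depend on scaling. They were 115 and 39 with median-of-ratios scaling, 179 and 37 with quantile normalization, and 87 and 27 with edgeR. Among those not called at 3wk, Tmem252, a transmembrane protein gene, went from 251, 91 and 124 CPM to 44.3, 50.2 and 66.2 CPM (-1.40, adjusted p = 0.00951), against 214 ± 24 CPM under DMSO. Nme2, a nucleoside diphosphate kinase gene, fell from 102 ± 8.23 to 65.3 ± 6.14 CPM (-0.63, adjusted p = 0.000746). The smooth muscle myosin Myh11 fell by 1.21 (adjusted p = 0.0397), a call that held without 6wk replicate 2 and was lost without each of the other 5 libraries. The 4 genes lowered by AAI that fell further were small changes, among them Cfb (-0.55) and Acaa1a (-0.27).

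Ribosomal protein genes, raised by AAI, fell in 6 of 19, with a median of -0.27. Rpl32 read 72.6, 74.2 and 87.9 CPM at 3wk and 46.3, 45.2 and 49.6 CPM at 6wk (-0.72 ± 0.11, adjusted p = 0.00158), against 33.8 ± 3.81 CPM under DMSO. Without 3wk replicate 3 or 6wk replicate 2, 3 fell, and 2 on the 6 libraries alone. Among 18 housekeeping genes 2 fell, Ppia (-0.71) and Psmb4 (-0.44), and none rose, with a median of -0.06. Many ribosomal protein genes have processed copies in the genome, so their reads are hard to assign.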

How the data were processed

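Total RNA of kidney cortex from PBS-perfused mice was sequenced (TruSeq Stranded Total RNA) in 18 libraries, 3 in each of 6 groups of genotype and treatment. Per the submitters' processing notes, bcl2fastq 2.19 and kallisto were used with the mm10 build. The deposited values are CPM per gene symbol. Every one of 433116 values was a whole multiple of 1 read within 0.01 read (100%), so the counts behind the deposited values were recovered, of 11722625 to 27213219 reads per library. The precision of low genes is limited by this depth. Symbols turned into dates, 27 in number, were not named.

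Genes that reached 1 CPM in 3 or more libraries were fitted as log2(CPM + 1) with limma 3.58.1 (R 4.3.3) to 6 group means with a variance trend, giving 12 residual degrees of freedom. Tests were two-sided, with Benjamini-Hochberg adjustment over 14604 genes and a threshold of 0.05. Called genes are those under it. Alternatives were pseudocount, filter, scaling, libraries in the fit, a replicate block, library weights, thinning, and edgeR 4.0.16 and DESeq2 1.42.0 on the recovered counts. Leaving out libraries for the gene lists, and the fit on the compared libraries without 6wk replicate 2, were chosen after seeing the data. The test was checked on simulated data.

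The comparison and the 57 gene lists were chosen with earlier results of these data known. Named genes were fixed examples, the largest changes without overlap overall and in each class, and from each list its 3 called members of lowest adjusted p, or its most abundant member. Other list members were chosen after their values were seen (Aadat, Acy3, Aqp2, Ccng1, Cdk1, Clu, Cyp2e1, Cyp4a14, Kif11, Lrp2, Napsa, Nphs1, Rrm2b, Sesn1, Slc12a1, Slc12a3, Slc14a2, Slc22a6, Sox9, Timp1, Trp53inp1, Umod and Vcam1). Promoter sequences are from RefSeq (GRCm38.p6). One result of the comparison is not reported here.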

Additional observations from a re-analysis of the deposited data

Results flagged for a closer look

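Dcdc2a, a doublecortin domain gene, moved in opposite directions in the genotypes. In fl/fl it read 115, 131 and 93.5 CPM at 3wk and 174, 178 and 160.5 CPM at 6wk, a difference of 0.60 (log2 scale), and every 6wk library lay above every 3wk library. In PTKO the difference was -0.53, with every 6wk library below every 3wk library. The difference between the genotypes did not pass the test (limma interaction, adjusted p = 0.128). The fl/fl call was lost without 3wk replicate 3 and without 6wk replicate 2.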

How the results depend on the processing

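The 1932 genes called between 6wk and 3wk had the same sign in every alternative fit that tested them, and 501 stayed called whichever of the 6 libraries was left out. Of 157 named genes that were called, 75 did so and 0 reversed in 22 alternative fits. Agreement of sign was largely set in advance, since these fits reuse the same libraries. Among the called genes, 1016 rises and 868 falls had no overlap between the 3 libraries of each group. The number of calls moved far more. The fit on 6 libraries gave 562 (312 higher, 250 lower), and without 6wk replicate 2 as well 486 (296, 190). Library weights gave 3297 (1805, 1492), and a minimum of 2-fold 403 (232, 171). With 1 library left out, calls ranged from 642 to 1917 (367 to 979 higher, 242 to 938 lower). The lowest of these counts came without 3wk replicate 3 (642) and without 6wk replicate 2 (643), and the cause was not tested. Deviations from the group mean correlated by -0.35, 0.18 and 0.24 between same-numbered libraries of the compared groups. Pairs of unlike number ran from -0.43 to 0.33. With 3 libraries in a group these values cannot decide whether the numbers pair them. A replicate block gave 1763 calls over 18 libraries (1003 higher, 760 lower) and 668 on the 6 alone (349, 319).

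In the order fell then rose, rose then fell, newly rose, newly fell, rose further and fell further, the fit on 6 libraries gave 218, 241, 60, 9, 34 and 0 genes. In the last 4 of these classes, the PTKO direction gave 310, 68, 180 and 10, median-of-ratios scaling 99, 115, 57 and 39, and edgeR 107, 87, 49 and 27. Quantile normalization gave 179 newly fallen, 48 risen further and 37 fallen further. With 1 library left out the 6 classes ranged from 267 to 797, 230 to 921, 55 to 152, 11 to 32, 34 to 72 and 0 to 4. Gene lists then ranged from 10 to 16 calls for S3, 2 to 10 for thick ascending limb, 1 to 13 for branched-chain amino acids (7 with median-of-ratios scaling), 3 to 13 for fatty acid oxidation, 3 to 21 for cell cycle, 8 to 18 for p53 targets, 1 to 11 for injury and 3 to 8 for ribosomal proteins.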

Other observations

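Gene families, matched by symbol, were picked after their values were seen; the ribosomal and Slc22 families share members with lists above. They are given as counts beside 7.16% rises and 6.07% falls over all tested genes. Of 60 ribosomal protein genes 23 fell and 0 rose (38.3%), with a median of -0.31, and in PTKO the median was -0.08. Of 31 Hox genes, which set position along the body axis and in the kidney, 11 rose and 0 fell (35.5%), with a median of 0.34, against 0.23 in PTKO. Of 20 motile cilium genes 8 rose and 0 fell (40.0%), with a median of 0.52, against -0.05 in PTKO, and 3 genes were trimmed from that family. Of 21 organic ion transporter genes of the Slc22 family 11 rose and 0 fell, with a median of 0.65, against 0.54 in PTKO. The difference from PTKO was not tested for a family.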
